A study of Mus musculus with 2 samples.

Results

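Basal cell identity genes are the genes that set the basal layer of the prostate gland apart from its secretory luminal layer. The 9 described here, out of 21887 protein-coding genes, were chosen by name: the regulator Trp63, the keratins Krt5, Krt14 and Krt6a, the hemidesmosome genes Itga6, Itgb4, Col17a1 and Dst, and the laminin gene Lamb3. Their accessible regions were all peaks of either library in the gene body with 50 kb on either side, here called the window of the gene. ATAC-seq, in which a transposase cuts and tags open DNA, was run on prostate tumor cells of C57BL/6 mice at a late and an early stage of progression toward neuroendocrine prostate cancer. The late library, M6, came from cells treated with tamoxifen for 6 months, and the early library, W2, from cells treated with tamoxifen for 2 weeks. Both groups thus received tamoxifen, and the alleles it acts on, the promoter that drives them and any pooling of animals are not named by the labels. With a single library at each time point (1 for M6, 1 for W2), every difference below lacks a replicate check, no test of the time points was possible, and intervals cover counting error only.

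Basal cells of the prostate lie between the luminal cells and the basement membrane. The transcription factor p63, the product of Trp63, is required for the basal layer and is made from alternative starts as longer and shorter forms. Basal cells fill their cytoskeleton with the keratins of Krt5 and Krt14, and Krt6a is a keratin of stratified, wounded or fast-growing epithelia. They hold to the basement membrane through hemidesmosomes, in which the integrin pair of Itga6 and Itgb4 and the transmembrane collagen of Col17a1 bind laminin outside the cell, to which Lamb3 gives a chain, and the plakin made from Dst ties them to keratin inside. Loss of basal markers such as p63 is a known feature of most prostate adenocarcinomas.

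Sequences of annotated starts show which of these promoters the peaks reached. A RefSeq promoter table of GRCm38.p6, the assembly that mm10 names, held 7 starts of 5 of the 9 genes (Dst, Lamb3, Krt5, Krt14 and Col17a1), and the starts of Trp63, Krt6a, Itga6 and Itgb4 were not analysed here. The 250 bases before a start are printed 5′ to 3′ for 4 of them, with every CpG in capitals. The first, on the plus strand at chr1:34011345-34011594, is the only one of the 7 under a peak, and an M6 peak covered all 250 bases. It lies 104 kb inside the lower edge of Dst. It is called the first Dst start only because it comes first among the Dst starts of the promoter table. The second, on the plus strand at chr1:34160010-34160259, is a later start of the same gene without a peak. The others, on the minus strand at chr15:101712906-101713155 and chr19:47692043-47692292, are the outermost starts of Krt5 and Col17a1, also without a peak.
Dst, first start: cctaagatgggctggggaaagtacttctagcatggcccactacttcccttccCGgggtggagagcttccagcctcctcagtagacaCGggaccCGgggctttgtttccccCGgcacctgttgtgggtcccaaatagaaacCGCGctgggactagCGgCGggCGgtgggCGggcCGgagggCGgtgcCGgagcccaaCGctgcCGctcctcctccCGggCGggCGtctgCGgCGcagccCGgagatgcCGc
Dst, second start: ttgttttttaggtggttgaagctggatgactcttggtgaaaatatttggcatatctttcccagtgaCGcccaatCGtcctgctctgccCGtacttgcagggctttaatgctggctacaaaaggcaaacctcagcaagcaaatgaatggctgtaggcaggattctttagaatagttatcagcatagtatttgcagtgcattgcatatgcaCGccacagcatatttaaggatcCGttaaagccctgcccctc
Krt5: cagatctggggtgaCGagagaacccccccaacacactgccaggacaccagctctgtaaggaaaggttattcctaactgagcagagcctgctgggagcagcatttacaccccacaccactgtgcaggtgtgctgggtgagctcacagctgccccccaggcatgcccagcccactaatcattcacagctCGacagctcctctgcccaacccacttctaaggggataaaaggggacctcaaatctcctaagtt
Col17a1: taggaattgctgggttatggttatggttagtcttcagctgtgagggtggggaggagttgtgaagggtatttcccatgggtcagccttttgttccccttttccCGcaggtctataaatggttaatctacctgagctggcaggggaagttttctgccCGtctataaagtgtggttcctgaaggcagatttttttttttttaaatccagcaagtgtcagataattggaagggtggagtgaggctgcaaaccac
The first Dst stretch has 22 CpGs and a GC content of 68.8%, the second 5 CpGs and 45.2%. The Krt5 and Col17a1 stretches have 2 CpGs each, with GC contents of 56.0% and 46.0%.

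Across the 9 windows the late library had more peaks, in about the proportion of the whole lists. The windows, 1637 kb in all, held 21 peaks in M6 and 5 in W2, a ratio of 4.20, against 22570 and 5735 peaks genome-wide, a ratio of 3.94. Per Mb this made 12.8 peaks in M6 (exact Poisson 95% interval 7.94 to 19.6) and 3.05 in W2 (0.992 to 7.13). The windows of all protein-coding genes together held 11.5 and 3.23 peaks per Mb. Pooled in this way, where long windows such as that of Dst weigh most, both intervals hold the value over all genes. Taken gene by gene, the median window held 6.86 peaks per Mb in M6 and 7.48 in W2 for the 9 genes, against 14.0 and 0 for all genes. Only 5 of the 9 windows held a W2 peak. Those of Krt5 and Krt6a overlap and hold the same one, so the W2 median of the 9 genes counts that peak for both. The pooled and the per-gene values thus differ in how the 9 windows compare with other genes.

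Of the 21 M6 peaks, 11 lay over one of the 9 genes or within 1 kb of its end, 5 at the end of another gene, 3 elsewhere inside another gene and 2 between genes. Of the 5 W2 peaks these numbers were 2, 1, 1 and 1. Ends here are the outer edges of a gene. Among the peaks inside other genes, those in H3f3b (M6 and W2) and Unk (M6) overlapped an annotated start of that gene. The 11 M6 peaks at the 9 genes all lay at Trp63, Itga6 and Dst, 6 of them at Dst, which thus weighs most in their median. Their median −log10 q was 4.68, against 9.30 for the other 10 M6 peaks of the windows, most of which overlapped an annotated start of another gene. The −log10 q, like the fold over local background used below, is the authors' own value for each peak, and the median over the whole M6 list was 6.92. Of the 5 M6 peaks of the windows among the 5735 strongest of their list, 1 lay over a basal gene (Trp63) and 4 at neighbours (Pdk1, H3f3b, Unk and Sfr1).

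**Figure D1:**
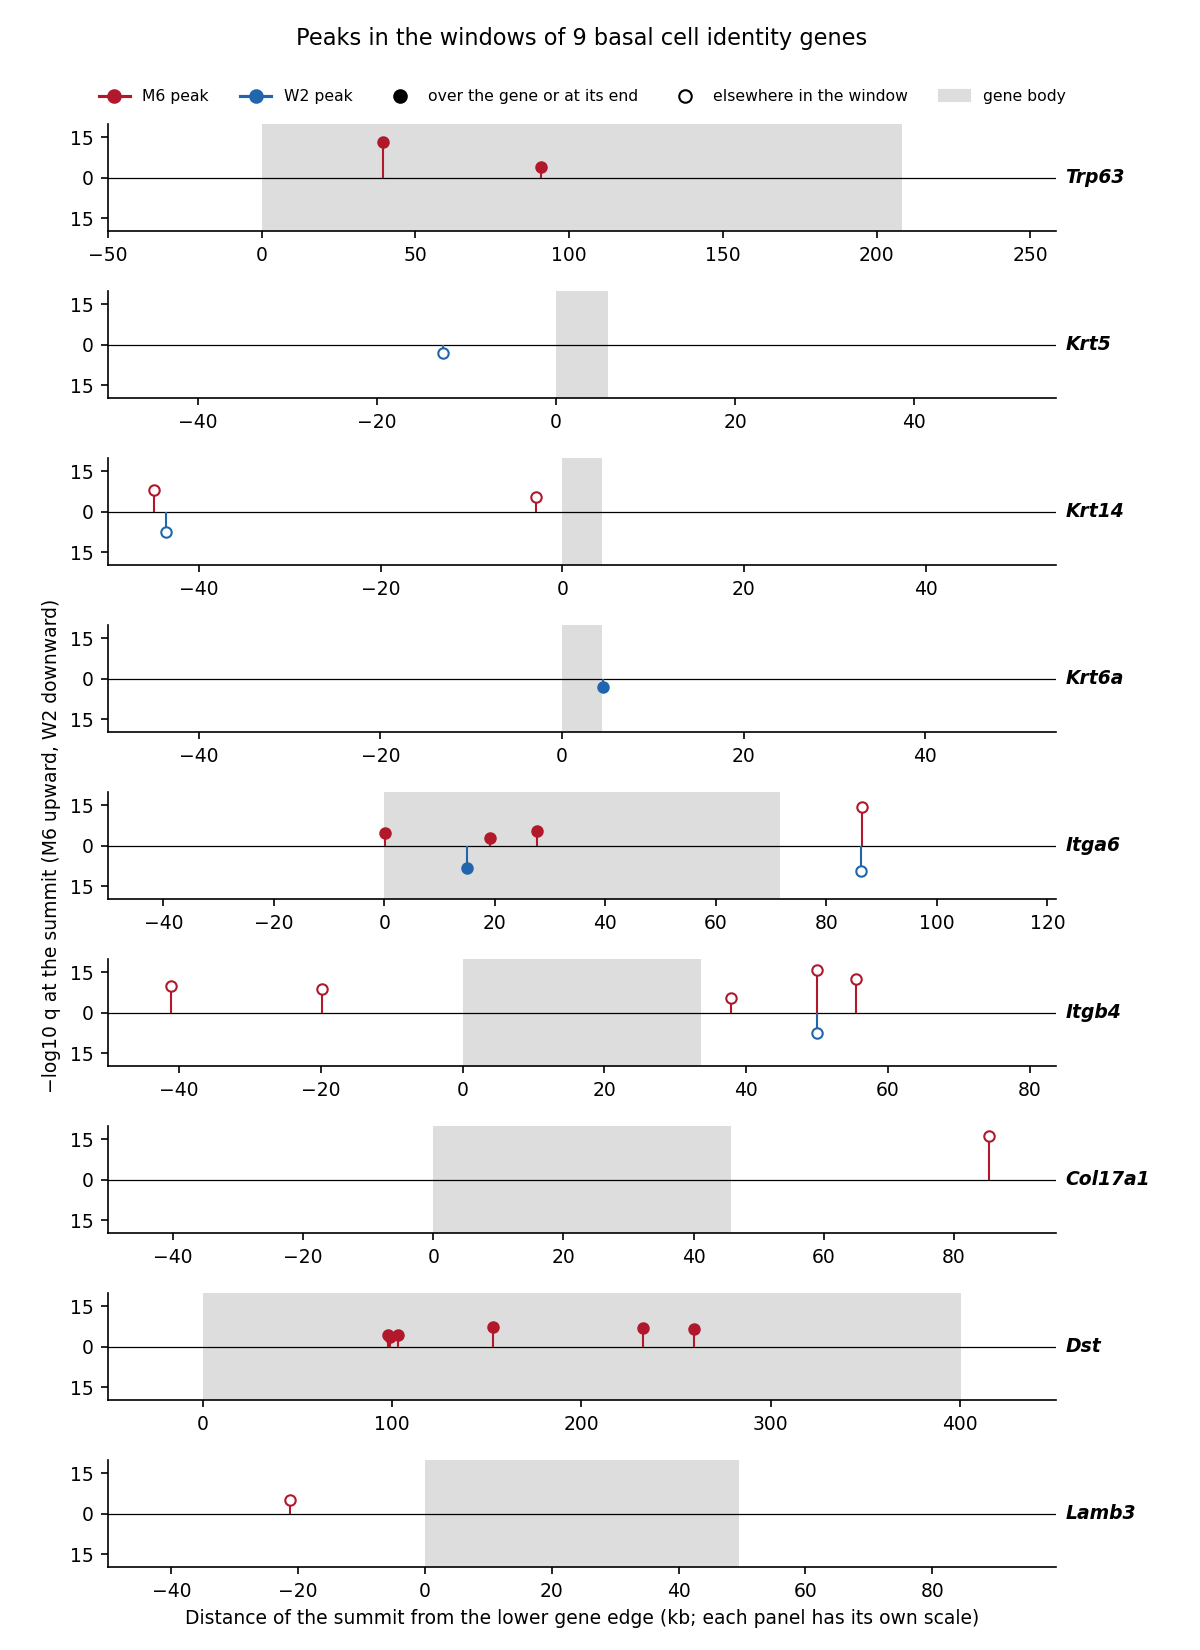
Each panel shows the window of 1 gene, with the distance of the peak summits from the lower edge of the gene in kb on the horizontal axis and the −log10 q on the vertical axis, M6 upward and W2 downward; grey marks the gene body, filled points lie over the gene or at its end, and the W2 peak in the Krt5 and Krt6a panels is the same peak. The tallest M6 stems, at the Col17a1, Itgb4 and Itga6 windows (−log10 q 16.1, 15.9 and 14.5), are open points outside those genes, while Trp63 has a filled M6 point at 13.3.

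Counted by gene, 7 of the 9 windows held an M6 peak (74.4% of all protein-coding genes did) and 5 held a W2 peak (48.3%). More M6 than W2 peaks were found at those same 7 genes (64.2% of all genes), and fewer at the remaining pair, Krt5 and Krt6a (2.07%). An M6 peak and no W2 peak was found at 4 (Trp63, Col17a1, Dst and Lamb3, 27.1% of all genes), the reverse at the same pair of keratins (0.996%), and no peak of either library at 0 (24.6%). Krt5 and Krt6a sit close together in the type II keratin cluster, their windows overlap, and both counts come from the same W2 peak. The median window of the 9 genes held 2 peaks in M6 and 1 in W2, and the median window of all genes 2 and 0. When both lists were cut to 5735 peaks by −log10 q, the windows held 5 peaks in M6 and 5 in W2, 3 genes having more in M6 and 4 genes fewer. The lowest −log10 q kept in M6 was 10.8. This cut removes most M6 peaks by construction, so the loss of the M6 excess is not read as particular to these windows. The shares of all genes with more or fewer M6 peaks were not computed with this cut.

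Peaks directly over the genes were found at the long ones. An M6 peak lay over the body of 3 of the 9 genes, Trp63, Itga6 and Dst, against 48.1% of all genes, and a W2 peak over 1, Itga6, against 20.6%. These 3 are the longest of the set, at 208, 71.5 and 401 kb. Among all genes of at least 50 kb, 74.2% had an M6 peak over the body and 30.4% a W2 peak. The other 6 genes, of 4.35 to 49.5 kb, had none in either library, against 40.5% in M6 and 17.7% in W2 of all genes under 50 kb. Within 1 kb of a gene end, 1 of the 9 genes had an M6 peak, Itga6 (39.7% of all genes), and 1 had a W2 peak, Krt6a (18.4%).

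Trp63 (chromosome 16, 25683763 to 25892088), the basal regulator, had 2 M6 peaks, both inside the gene, and no W2 peak, the nearest W2 peak being 689 kb away. The stronger M6 peak (25723097 to 25723531) had its summit 39.5 kb from the lower edge of the gene, with a fold of 7.07 and a −log10 q of 13.3. Its pileup, meaning the tags stacked at the summit, was 26 (exact Poisson 95% interval 17.0 to 38.1). It was the strongest M6 peak over any of the 9 genes, and 16.5% of the M6 list ranked above it by −log10 q. The second (25774657 to 25774856) was weak, with a pileup of 14 (7.65 to 23.5) and a −log10 q of 3.97. No peak of either library lay within 1 kb of an end of Trp63, and no other protein-coding gene lay in its window. Which exons, introns or alternative starts these peaks fall in is not shown by the tables used here.

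The keratin genes had no peak over their bodies in either library. Krt5 (chromosome 15, 101707069 to 101712905) had no M6 peak within 211 kb, and its nearest W2 peak, 12.3 kb away, was the one at Krt6a. That W2 peak (101694367 to 101694721) lay 62 bp beyond the upper end of Krt6a (101689928 to 101694305), with a pileup of 15 (8.40 to 24.7), a fold of 3.76 and a −log10 q of 3.06. It was among the weakest of its list, with 94.8% of W2 peaks ranked above it. Krt6a had no M6 peak within 194 kb. A gene-end peak in W2 without one in M6, as at Krt6a, was found at 0.649% of all protein-coding genes.

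Krt14 (chromosome 11, 100203162 to 100207510), the keratin partner of Krt5, had 2 M6 peaks and 1 W2 peak in its window, all between genes. The nearest M6 peak (100200167 to 100200427) lay 2.74 kb from the lower edge of the gene, which is the side away from its annotated start, and had a pileup of 16 (9.15 to 26.0) and a −log10 q of 5.40. The other M6 peak (100158096 to 100158396, pileup 23, −log10 q 8.07) and the W2 peak (100159497 to 100159725, pileup 22, −log10 q 7.75) lay near each other without overlapping, 1100 bp apart. Their nearest gene was Krt19, a keratin of simple epithelia, at 12.2 and 13.6 kb. At 44.8 and 43.4 kb from Krt14 these 2 were also the outermost peaks counted in any window, and the next peaks beyond a 50 kb flank were an M6 peak 67.0 kb from Col17a1 and a W2 peak 70.7 kb from Krt14.

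Of the hemidesmosome genes, Itga6 (chromosome 2, 71786886 to 71858427), which encodes the laminin-binding integrin α subunit, had peaks over its body in both libraries, none of them at a shared site. M6 had a peak at the lower gene end (71786823 to 71787254, pileup 17, −log10 q 4.68) and further ones 19.1 kb (pileup 15, −log10 q 2.65) and 27.7 kb (pileup 22, −log10 q 5.36) inside. W2 had 1 peak, 14.9 kb inside (71801721 to 71801924), with 23 tags (14.6 to 34.5), fold 5.45 and −log10 q 8.27, and 29.5% of the W2 list ranked above it. It was the strongest W2 peak over any of the 9 genes and overlapped no M6 peak. The strongest peaks of the window in both libraries had summits 14.8 kb past the upper end of Itga6, at the start of Pdk1, a kinase that restrains pyruvate dehydrogenase. The Pdk1 site had a pileup of 30 in M6 and 23 in W2, with folds of 6.80 and 6.06 and summits 40 bp apart.

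Dst (chromosome 1, 33907888 to 34308662), which encodes the plakin dystonin in epithelial, neuronal and muscle forms, had 6 M6 peaks and no W2 peak, and its nearest W2 peak was 131 kb away. All 6 lay inside the gene, with pileups of 18 to 21 tags, folds of 3.27 to 5.14 and −log10 q of 3.50 to 7.18. The first 3 lay close together, with summits 98.0, 98.7 and 103 kb from the lower edge. The last of these (34011140 to 34011633, pileup 19, 11.4 to 29.7, −log10 q 4.41) is the peak over the first Dst start printed above. The strongest (34061226 to 34061454, pileup 21, −log10 q 7.18) lay 153 kb inside. The others lay 232 and 259 kb inside, and none overlapped the second printed start. The outermost edge of Dst, which faces the start of the divergent gene Bend6, was without a peak within 1 kb in M6 and W2. Which protein form each start serves is not given by the table used here.

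Itgb4 (chromosome 11, 115974725 to 116008412), the β subunit that pairs with Itga6, had 5 M6 peaks and 1 W2 peak in its window, and none over the gene or at its ends. All 5 M6 peaks overlapped an annotated neighbouring gene or its start. They were at the shared start region of Recql5, a helicase gene, and Sap30bp (−log10 q 10.0), inside Sap30bp (8.59), at Galk1, the galactokinase gene (5.61), inside H3f3b, a histone gene (15.9), and inside Unk (12.6). The H3f3b and Unk peaks were inside by the gene edges but overlapped annotated starts of these genes. Those starts lie 1.54 kb (H3f3b) and 1.70 kb (Unk) in from the edge. The H3f3b site was shared, with a pileup of 40 in M6 (28.6 to 54.5) and 23 in W2 (14.6 to 34.5), summits 2 bp apart, and the whole W2 peak inside the wider M6 peak (993 bp in M6, 272 bp in W2). Relative to local background its fold was 5.74 in M6 and 5.0 in W2.

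Col17a1 and Lamb3 each had 1 M6 peak in the window, at a neighbour, and no W2 peak. For Col17a1 (chromosome 19, 47646341 to 47692042), which encodes the hemidesmosome collagen, it lay 39.3 kb away at the start of Sfr1, a DNA repair gene, with 31 tags (21.1 to 44.0), fold 7.37 and −log10 q 16.1. This was the strongest peak of all 9 windows. For Lamb3 (chromosome 1, 193294353 to 193343878), the laminin chain gene, it lay 21.1 kb away at the start of G0s2, an inhibitor of fat breakdown, with a pileup of 16 (9.15 to 26.0) and a −log10 q of 5.06. The nearest W2 peaks were 137 kb from Col17a1 and 121 kb from Lamb3.

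Only the Pdk1 and H3f3b sites were peaks in both libraries. They made 2 of the 21 M6 window peaks (9.52%, exact binomial 95% interval 1.17 to 30.4%) and 2 of the 5 W2 window peaks (40.0%, 5.27 to 85.3%). Over the whole lists, 20.2% of M6 and 80.5% of W2 peaks overlapped a peak of the other library by at least 1 bp, and both values lie within the intervals. No peak over one of the 9 genes was at the same place in M6 and W2.

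The pileups limit how firmly a peak in 1 library can be read as a difference. The lowest pileup in the M6 list was 10 tags and in the W2 list 12, so a site with fewer tags is absent from a list without being closed. Of the 11 M6 peaks at the 9 genes, 3 had a Poisson lower bound above 12 tags: the stronger Trp63 peak, the Itga6 peak 27.7 kb inside (13.8 to 33.3) and the strongest Dst peak (13.0 to 32.1). Of all 21 M6 window peaks 10 did, against 57% of the whole M6 list. For the other 8 M6 peaks at the 9 genes, W2 signal just under the lowest W2 pileup is not distinguishable at this depth from the M6 signal. Of the W2 peaks at these genes, the one inside Itga6 had a lower bound above 10 tags and the one at Krt6a did not, and over the whole W2 list 79.9% of peaks did. These tags were not scaled for read depth, which is not named for either library. The lowest pileup of a whole list also need not be the limit at a given site. A lower bound above it is therefore not a shown difference between the libraries. Local background at the window peaks was 0.753 to 1.74 times the library median in M6 and 0.861 to 1.10 times in W2.

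**Figure D2:**
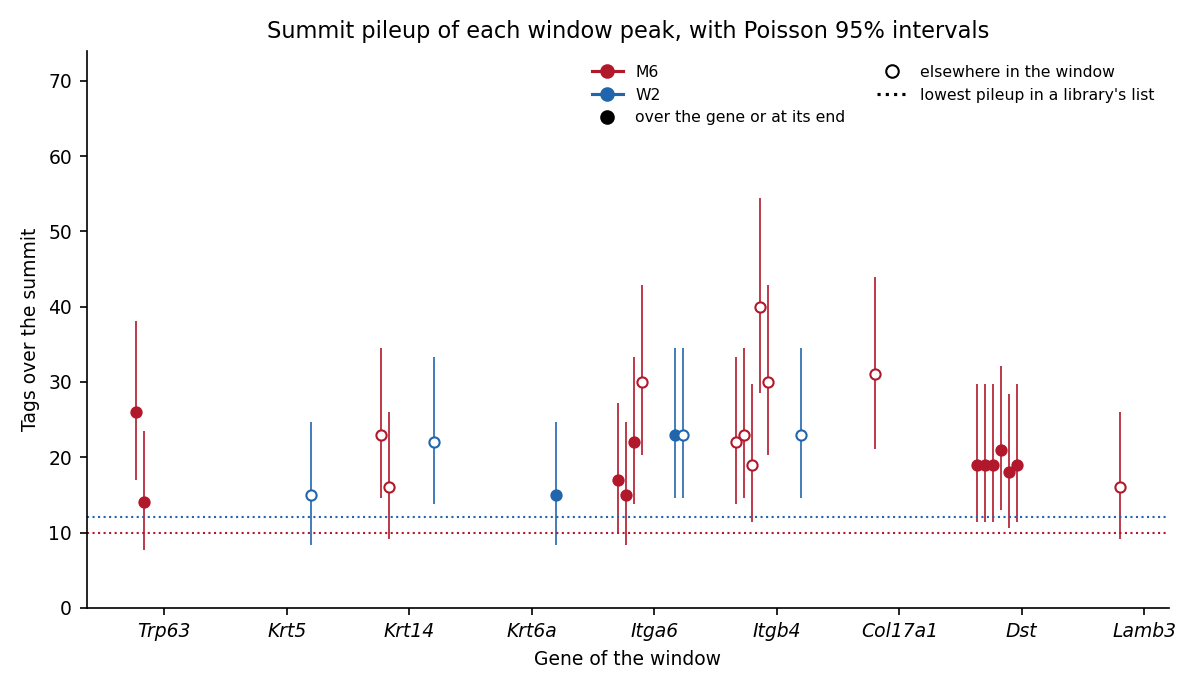
The vertical axis gives the tags over the summit of each window peak with its exact Poisson 95% interval, by gene, with M6 left of W2; filled points lie over the gene or at its end, and dotted lines mark the lowest pileup in each list (10 tags in M6, 12 in W2). The Dst points sit at 18 to 21 tags, at or under the M6 list median of 21, and all but the strongest have intervals reaching below 12 tags. The highest points, up to 40 tags in the Itgb4 window, are open points at other genes. The W2 point at Krt5 and Krt6a is the same peak.

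The annotated starts of the basal genes without a peak were poor in CpG, and the starts with a peak were mostly rich in it. CpG content was taken as the number of CpGs observed over that expected from the C and G content of the 250 bases before a start. The first Dst start had a value of 0.745 and an M6 peak, and the other 6 starts of the basal genes, from 0.0941 at Lamb3 and 0.105 at Krt5 to 0.392 at the second Dst start, had none in M6 or W2. The Lamb3 starts among these 6 lie close together and are not independent. Among 14 starts of 12 other genes in these windows, 8 had an M6 peak, with values of 0.472 to 1.07. Of these 8, the starts of Recql5 and Sap30bp lie under the same peak. The 6 without an M6 peak included Krt9, Krt71 and Camk1g (0.0804 to 0.213) and the second start of Pdk1 (0.223). They also included both starts of Bend6, in spite of values of 1.04 and 1.08.

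The same relation held across the genome. Of 21263 promoter windows of protein-coding genes, from 250 bases before to 50 after a start, 35.7% overlapped an M6 peak and 16.6% a W2 peak. With a CpG value under 0.2, these shares were 2.23% and 0.648%, and with a value of 0.8 to 1.0, 65.9% and 33.0%. For starts under 0.4, the class of 6 of the 7 basal starts, they were 5.80% and 1.80%. Having no peak was thus the usual state for starts of this class in both libraries, and the part of CpG content in the values of the basal genes was not tested.

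**Figure D3:**
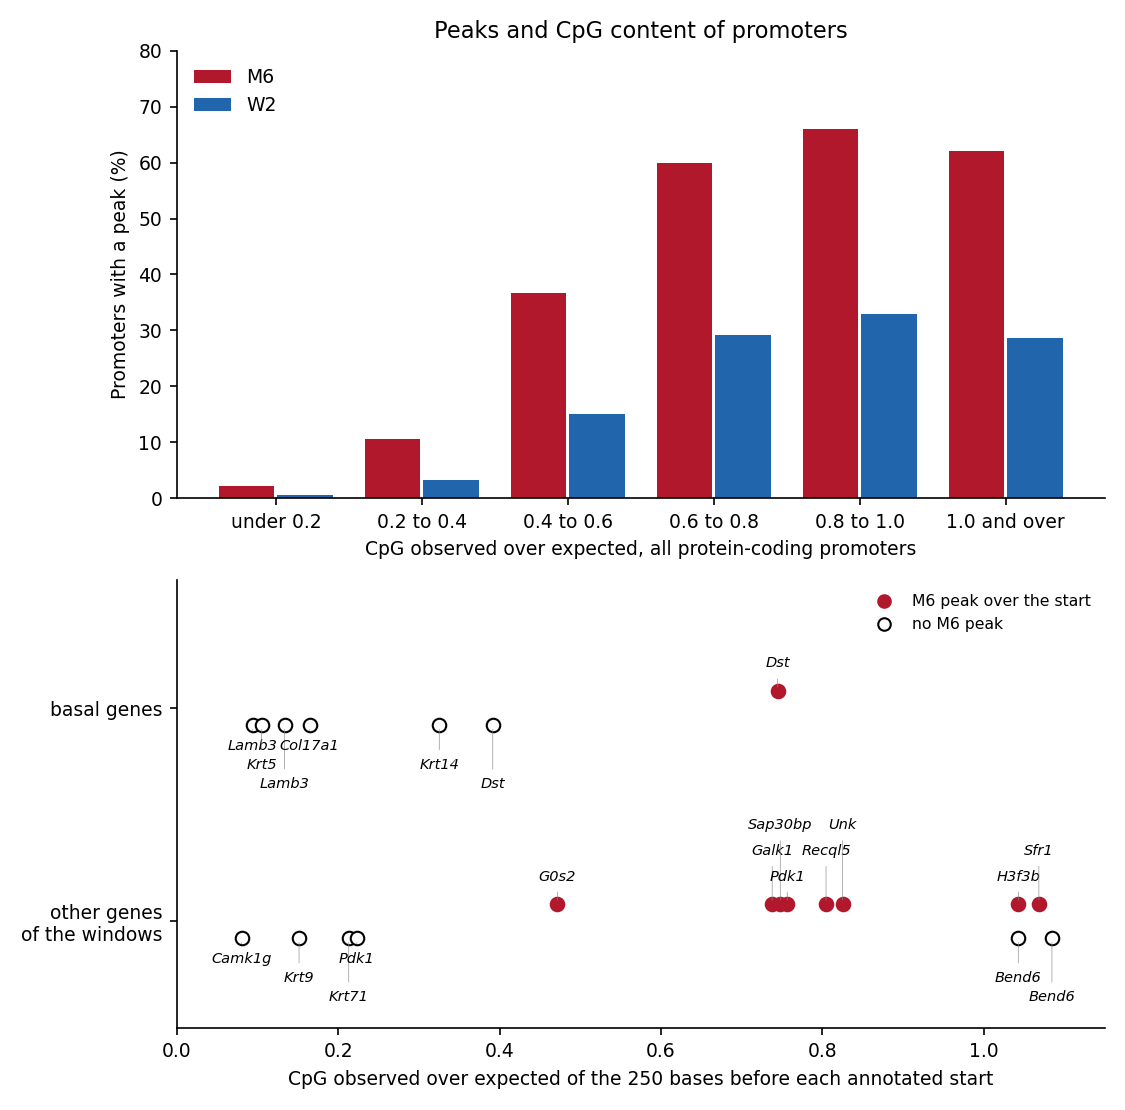
The upper panel gives the percent of protein-coding promoters that overlap a peak of M6 or W2, by the CpG observed over expected of the 250 bases before the start; the lower panel places the annotated starts of the basal genes and of the other genes in their windows on the same measure, filled where an M6 peak overlaps. Shares run from 2.23% to 65.9% in M6, 6 of the 7 basal starts lie under 0.4 without a peak, and the first Dst start lies at 0.745 with one.

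Motifs were counted on both strands of the same 250 bases. The first Dst start holds 4 GC boxes (GGGCGG), a motif present before 42.6% of all protein-coding starts, and no AP-1 motif (TGANTCA, 6.13%), TATA box (TATAAA, 11.6%) or CCAAT box (CCAAT, 35.4%). The Col17a1 start holds 2 TATA boxes and 1 CCAAT box, and the second Dst start 1 CCAAT box. The Krt5 start holds 1 half-site of the p53 family, the motif class that p63 binds, which occurs before 6.31% of all starts, and none of the other motifs. No other annotated start of the basal genes holds this half-site, and those of Krt14 and Lamb3 hold none of the motifs counted. The motif matches are letters in a window and not evidence of binding.

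Other genes of the basal and hemidesmosome pathway were counted in 4 lists of 37 genes in all. At their ends 14 of the 37 had a peak in M6 and 5 in W2, and all 5 W2 genes were among the 14. Hemidesmosome and basement membrane partners had 6 of 10 in M6 and 2 in W2, desmosome and basal surface genes 5 of 12 and 3, p63 and basal regulators 3 of 8 and 0, and other basal and stratified keratins 0 of 7 in both. The shares over the 37 genes, 37.8% in M6 and 13.5% in W2, stand beside 39.7% and 18.4% over all protein-coding genes. Windows held more M6 than W2 peaks at 28 of the 37 genes (64.2% of all genes) and fewer at 3 (2.07%), which were Krt15, Krt17 and Krt6b. These are not independent of the values above, since the W2 peak of the Krt6b window is the one at Krt6a, and 1 of the 2 W2 peaks of the Krt15 window is the one near Krt14.

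Of the 5 genes with gene-end peaks in both libraries, Itgb1, the common integrin β subunit, had a −log10 q of 13.1 in M6 and 5.49 in W2 (pileups 31 and 18), and Itga3, another laminin-binding integrin subunit, 6.17 and 4.43 (24 and 20). Perp, a desmosome gene that p63 is known to control in skin, had 15.9 and 4.85 (32 and 17), Sfn, an epithelial 14-3-3 protein, 9.07 and 4.58 (26 and 19), and Egfr, the epidermal growth factor receptor, 6.32 and 3.17 (18 and 16). These pileups are tags not scaled for read depth, which is not named for either library. Their M6 and W2 values were not compared over all genes with gene-end peaks in both libraries. Among M6 gene-end peaks without a W2 one, strong ones were at Lamc1, a common laminin chain gene (−log10 q 11.7, pileup 28), and Snai2, a regulator of basal and migrating cells (11.5, pileup 28). Lama3, whose chain joins that of Lamb3 in the laminin of anchoring filaments, had a weak M6 gene-end peak (4.67, pileup 15) and none in W2. Plec, the plakin that joins Itgb4 to keratin, was without a gene-end peak in M6 and W2.

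**Figure D4:**
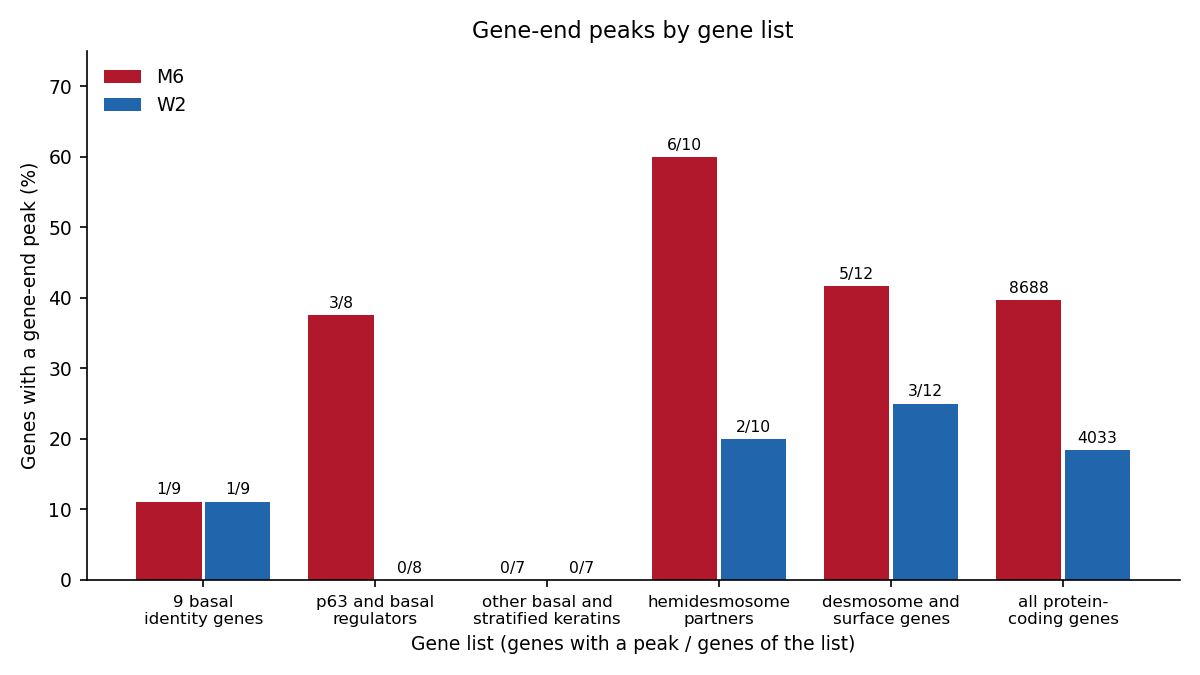
Bars give the percent of genes in each list with a peak within 1 kb of an annotated gene end, M6 left of W2, with the number of genes with a peak over the list size (for all protein-coding genes, the number with a peak). The 9 identity genes stand at 1 of 9 in both libraries and the other keratins at 0 of 7, against 39.7% of all genes in M6 and 18.4% in W2; the lists hold few genes and carry no error bars.

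The basal marker list of 11 genes had a gene-end peak at 1 in M6 (Itga6) and 1 in W2 (Krt6a), so the defining basal genes Trp63, Krt5 and Krt14 had none in either library. Markers of other cell types were counted in the same way, beside shares of 39.7% in M6 and 18.4% in W2 over all genes. Luminal and prostate markers had a gene-end peak at 1 of 8 genes in M6 (Krt8) and 0 in W2, with none at Hoxb13 or Pbsn in either library. Neuroendocrine markers had 3 of 8 in M6 (Chgb, Scg2 and Eno2) and 0 in W2, a share of 37.5% in M6 near that of all genes, and the Eno2 peak also lies at an end of Lrrc23. Leukocyte (6 genes), endothelial (5), fibroblast (5) and smooth muscle markers (4) had none in either library. Markers of Schwann cells and nerve, which also use Dst, Itga6 and Itgb4, had 2 of 5 in M6, Mbp among them, and 1 in W2. The part of such cells in the peaks at Dst and Itga6 was not tested.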

How the data were processed

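Peaks were deposited per library, 22594 for M6 and 5765 for W2, and 22570 and 5735 on chromosomes 1 to 19, X and Y were used. The submitters' processing notes name Trim Galore 0.5.0, Bowtie2, SAMtools 1.4, deepTools and mm10. Neither these notes nor the labels name the peak caller, its threshold, the read depth or the handling of duplicates and read shift. The authors deposited for each peak a fold (a linear ratio of the summit to the local background of its own library), a −log10 p and a −log10 q. The score that the authors deposited is 10 times the −log10 q and was not used. Pileup and background were recovered from fold and −log10 p, taking the fold as pileup plus 1 over background plus 1 and p as a Poisson upper tail. A whole pileup was found for 100% of peaks within 0.001 of the deposited −log10 p, and the step was tested on simulated data. Coordinates are 1-based.

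Genes came from the RefSeq table of GRCm38.p6, which lacks strand and exons. An overlap of at least 1 bp placed a peak in a window or called it shared, and a gene-end peak lay within 1 kb of either gene edge. The alternatives tried were window size, peak strength, equal peak numbers and the placing of peaks. With 1 library per time point no test was made. Shares carry exact (Clopper-Pearson) and pileups exact Poisson 95% intervals, which cover counting error only. The genes named are all 9, the neighbours with an end within 1 kb of a window peak (H3f3b, Unk and Krt19, named as the genes nearest to other window peaks, fall outside this rule and were chosen after their values were seen), and of the other pathway genes those with a W2 gene-end peak and the 6 with the highest −log10 q in M6. Some genes of the lists are counted but not reported by name here. Members and lists were chosen with earlier results of these data known. Plec, Lama3, the 3 keratins with fewer M6 peaks, Krt9, Krt71, Camk1g and Bend6 were named after their values were seen. Python 3.11.15, pandas, NumPy, SciPy and Matplotlib were used.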

Additional observations from a re-analysis of the deposited data

How the results depend on the processing

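No paired analysis was possible because each time point had 1 library, which also leaves no replicate to leave out. With 12 other settings, 59 of 97 recomputed values stayed within 1.5 times the reported count or inside the reported interval. The balance of genes with more and with fewer M6 peaks, 7 and 2 as reported, turned to 3 and 4 with equal numbers of peaks. Shares over all genes were not computed for any of these settings. Window size set the counts. The windows held 13 peaks in M6 and 2 in W2 with 10 kb flanks, 32 and 8 with 100 kb flanks, 11 and 1 over gene bodies alone, and 12 and 2 (7.33 per Mb in M6) when the nearest gene had to be the basal gene. Fewer M6 than W2 peaks were then found at 1 gene (10 kb), 0 genes (body) and 1 gene (nearest gene), and more at 3 (body) and 4 (nearest gene). In these 3 narrower settings 0% of the peaks of either library were shared, since both shared sites belong to neighbours. Equal numbers of peaks removed most M6 peaks by construction. By −log10 q, M6 kept 5 peaks (3.05 per Mb, a ratio to W2 of 1.0, 40.0% shared), and by fold 6 (3.67 per Mb, a ratio of 1.20, 33.3% shared). Either way more M6 peaks were found at 3 genes, fewer at 4, and gene-end peaks in M6 at 0. Requiring a −log10 q of at least 5 removed the gene-end peaks of Itga6 in M6 and Krt6a in W2 (0 genes in both) and left 0 genes with fewer M6 peaks. With annotated starts in place of gene ends, M6 had 1 gene, now Dst, and W2 had 0, as the start table holds neither Itga6 nor Krt6a.

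Peaks at the 9 genes had pileups of 14 to 26 tags, beside a median of 21 and a lowest of 10 in the M6 list and of 21 and 12 in the W2 list. The Trp63 peak of 26 tags and the Itga6 peaks of 22 (M6) and 23 (W2) lie above those medians. The small number of W2 window peaks (5) leaves wide intervals.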

Other observations

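The families that the basal genes belong to were counted after the data were seen. Of 53 keratin genes, 4 had a gene-end peak in M6 (7.55%) and 1 in W2 (1.89%), against 39.7% and 18.4% of all protein-coding genes. The M6 genes were Krt8, the luminal keratin (−log10 q 6.05, pileup 25), Krt78, whose strongest gene-end peak (4.54) also lies at an end of Krt8, Krt80 (4.89) and Krt4, an esophageal keratin (7.52). The W2 gene was Krt6a. Krt18, the partner of Krt8, had none in either library.

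For the other families the shares over all genes are again 39.7% in M6 and 18.4% in W2. Of 26 integrin subunit genes, 9 had a gene-end peak in M6 (34.6%) and 3 in W2 (11.5%; Itga3, Itga10 and Itgb1), and all 3 were among the 9. The highest −log10 q in M6 was at Itgb1 (13.1), next at Itga10 (11.1). Of 11 laminin chain genes, 5 had one in M6 (45.5%) and 0 in W2. The M6 shares of both families are near that of all genes. The strongest was at Lamb2 (15.8, pileup 39), a peak it shares with an end of Usp19, and Lamc1 followed (11.7). Of 6 plakin genes, Evpl and Ppl, the envoplakin and periplakin of stratified epithelia, had one in M6 and in W2 (−log10 q 11.4 in M6 and 4.89 in W2 at Evpl, 9.19 and 5.49 at Ppl), and Dst and Plec had none.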
